A study of Mus musculus with 38 samples.

Results

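The genes followed here are 10 whose products normally act in germ cells; their levels were measured in normal mouse kidney, MYC-driven kidney tumours and cell lines made from such tumours. The genes were Tdrd1, Asz1, Ddx4, Dazl, Mael, Mov10l1, Piwil2, Sycp3, Tex101 and Stk31, and all 10 had a row among the 21705 gene rows. They were picked by symbol, with earlier results of these libraries in view: Tdrd1 for its level in MYC tumours and Asz1 for its level in VIM-3039 cells. The levels behind those choices are therefore given as a description with no test.

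The series held 38 mRNA libraries in 10 groups. There were 9 kidney tumours from mice kept on doxycycline (Dox), 3 each of MYC, VM and VIM genotype. MYC mice carried Ksp-rtTA and Tet-O-MYC, so that Dox turns on MYC in renal tubule cells, where the Ksp-cadherin promoter is active. VM mice also carried KspCreERT2 and floxed Vhl (labelled Vhl-/-), deleted in the same cells by tamoxifen, and VIM mice in addition lacked Ink4a/Arf in every cell (Ink-/-/Arf-/-). The 3 MYC tumour libraries came from 2 mice, with 2 libraries from mouse 2983. Another 24 libraries came from 3 cell lines, MYC-2983, VM-3055 and VIM-3039, each with 4 libraries kept on Dox and 4 after Dox was withdrawn for a day. There was 1 line per genotype, so that line and genotype cannot be told apart. The cell labels give VM and VIM without a line number, which was taken from the study's text. The remaining 5 libraries were Wild Type kidneys given vehicle, 2 labelled B6 and 3 labelled KT. Ages were not given in the labels.

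Germ cells silence transposons with small RNAs, the piRNAs, that are bound by Piwi proteins and processed in granules rich in RNA helicases and tudor-domain proteins. The genes for this machinery, and those that build the meiotic chromosome axis, are shut off in most body tissues, in part by DNA methylation of CpG-rich promoters and by repressor complexes that sit on E-box and E2F motifs. When tumours turn such genes on they are often called germline or cancer/testis genes. MYC, with its partner MAX, binds E-boxes of the letters CACGTG.

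The 250 bases before the RefSeq start were searched on both strands for CACGTG and for the E2F core TCCCGC (its other strand reads GCGGGA). RefSeq promoters (GRCm38.p6) were found for 9 of the 10 genes, all but Piwil2, and each matched the mm9 assembly exactly at its gene. Tdrd1 had 3 RefSeq promoters and Stk31 had 2, and a gene was counted if any of its promoters held the motif. An E-box stood in 6 of the 9 (Tdrd1, Ddx4, Mael, Mov10l1, Sycp3 and Stk31), against 6.86% of 27025 genes with a promoter in the table. An E2F core stood in 3 of the 9 (Ddx4, Mael and Sycp3), against 18.8% of all. The sequences below are the promoters of Tdrd1, Asz1 and Mov10l1, on which the results turn, and of Ddx4, which holds both motifs and stayed low in most libraries. All run 5′ to 3′ on the strand of the gene, with both motifs in capitals, and all coordinates are mm9. The Mov10l1 window was printed only as far as the first annotated exon.
Tdrd1, chr19:56900449-56900698, plus strand: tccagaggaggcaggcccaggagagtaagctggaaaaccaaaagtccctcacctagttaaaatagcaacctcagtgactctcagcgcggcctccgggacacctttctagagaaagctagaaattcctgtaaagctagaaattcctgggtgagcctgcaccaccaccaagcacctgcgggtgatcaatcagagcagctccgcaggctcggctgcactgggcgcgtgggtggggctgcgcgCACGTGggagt
Mov10l1, chr15:88813174-88813338, plus strand: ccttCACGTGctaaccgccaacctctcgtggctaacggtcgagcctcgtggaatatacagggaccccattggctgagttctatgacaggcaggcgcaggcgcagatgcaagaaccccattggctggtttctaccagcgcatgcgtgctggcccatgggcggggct
Asz1, chr6:18059062-18059311, minus strand: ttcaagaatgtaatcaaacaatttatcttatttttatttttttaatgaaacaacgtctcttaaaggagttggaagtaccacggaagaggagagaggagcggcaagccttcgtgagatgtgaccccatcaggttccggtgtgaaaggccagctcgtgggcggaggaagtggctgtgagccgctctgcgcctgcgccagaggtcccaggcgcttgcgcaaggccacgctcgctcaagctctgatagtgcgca
Ddx4, chr13:113442519-113442768, minus strand: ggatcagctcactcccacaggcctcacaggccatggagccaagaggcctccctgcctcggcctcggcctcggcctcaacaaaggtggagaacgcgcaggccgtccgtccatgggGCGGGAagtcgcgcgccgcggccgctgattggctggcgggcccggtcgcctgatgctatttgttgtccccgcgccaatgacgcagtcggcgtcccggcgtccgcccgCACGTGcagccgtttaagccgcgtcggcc
In the Tdrd1 window printed here the E-box began 11 bases before the start, and in Ddx4 29 bases before it. In Mov10l1 the E-box began 246 bases before the RefSeq start, which lay 85 bases inside the annotated gene. Asz1 held neither motif. These windows held 11 CpG pairs for Tdrd1, 15 for Asz1, 19 for Mov10l1 (over its whole window) and 31 for Ddx4. The median of 32851 promoter windows was 6, and 35.6% of them held 11 or more. A motif match is a matter of letters and no measure of binding.

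Levels are RSEM read estimates that the authors brought to an upper quartile of 1000 units per library. They are not divided by gene length, so that levels were compared between libraries and not between genes. One read was worth 0.388 to 1.88 units, and the libraries held an estimated 8.22 to 36.6 M reads, with the fewest in the tumours. A level of 3 reads or fewer (1.16 to 5.65 units, depending on the library) was read as not detected. This floor covers counting error only. Of the 380 pairs of gene and library, 190 were at 0 and 117 were above the floor. Of the 10 genes, 8 passed the floor somewhere, 6 in at least 1 tumour, 5 in at least 1 cell library and 4 in at least 1 kidney. The map of levels by library shows 4 kinds of gene: Tdrd1, Piwil2 and Mov10l1, high in some tumours; Asz1, high in 1 cell line; Sycp3 and Ddx4, with a level in kidney; and Dazl, Mael, Tex101 and Stk31, never over 20 units.

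**Figure D1:**
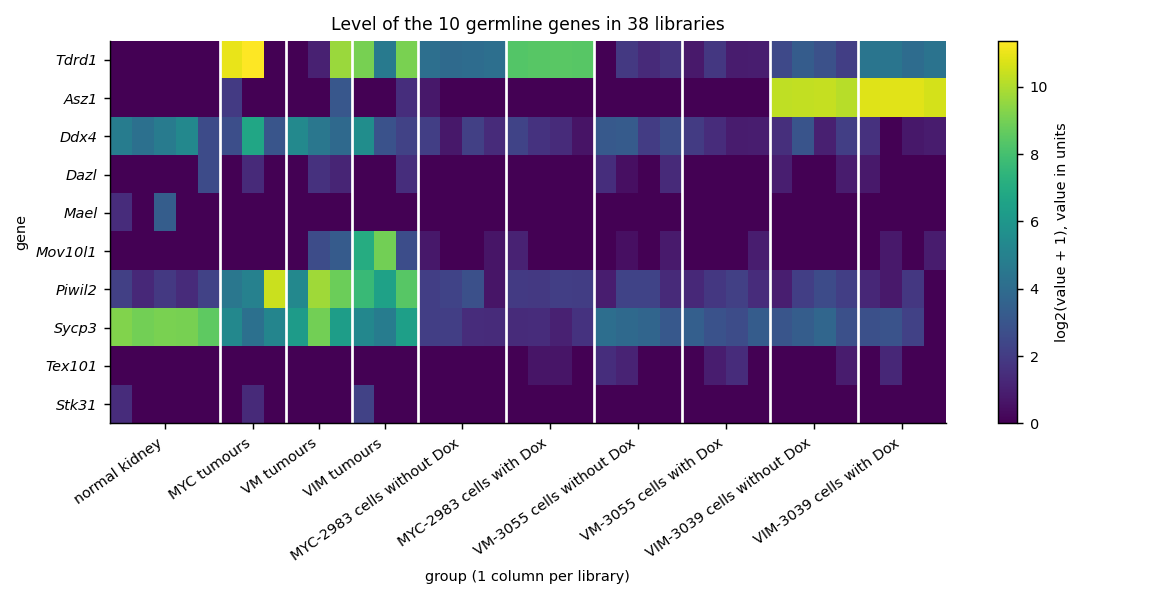
Each column is 1 of the 38 libraries, ordered by group, each row 1 of the 10 germline genes, and the colour gives log2(value + 1) with the value in units. Tdrd1, Piwil2 and Mov10l1 light up in tumours, Asz1 in the 8 VIM-3039 libraries, and Sycp3 in the 5 kidneys.

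Markers of germ cells were low in all 38 libraries. Of 14 germ cell markers in the table, among them the protamines Prm1 and Prm2, 4 were at 0 in all 38 libraries and none passed 20 units in any, with a highest value of 10.8 units for Sohlh1. Their sums were 0 to 2.92 units in kidney, 0 to 3.99 in VM, 7.53 to 11.01 in VIM and 4.66 to 16.98 in MYC tumours. The one marker that could be tested in VIM tumours against kidney, Nanos3, passed higher (log2 change 2.46, adjusted p = 0.00253, limma) on 5.65 to 9.18 units. Markers of Sertoli and Leydig cells, 4 in number, summed to 18.7 to 32.3 units in kidney and 131.5 to 445 in the cell lines. In tumours they summed to 18.7 to 494 units in MYC, 84.8 to 279 in VM and 18.4 to 80.0 in VIM. Of these, Amh passed higher in VM and VIM tumours and Sox9 in VM tumours (limma). Kidney tubule markers summed to 222668 to 313900 units in normal kidney and to 9628 to 25889.9 units in the 9 tumours. Of these 9 markers, 7 passed lower in VM and 8 in VIM tumours (limma), while Pax8 passed higher in both. Leukocyte markers summed to 521 to 836 units in kidney and to 1696 to 13192 units in tumours; of the 5, the myeloid genes Cd68 and Lyz2 passed higher in VM and VIM tumours, while Ptprc and Cd79a passed lower in VM and Cd3e in VIM tumours. Endothelial markers summed to 2772 to 4649 units in kidney and to 188 to 1917 in tumours. These sums moved with tumour against kidney, and their part in the results on tissue was not tested. In bulk tissue, fewer cells that make a transcript and less of it per cell cannot be told apart.

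Piwil2 codes for a Piwi protein (MILI in the mouse) that binds piRNAs in the testis. It lies at chr14:70772287-70828901 on the minus strand (mm9) and was the one gene of the 10 above every kidney in all 9 tumours, as were 14.9% of all genes (14.7% were below every kidney in all 9). In the 5 kidneys it measured 1.46 to 3.80 units, or 1 to 3 reads. In the VM tumours it measured 38.6, 864 and 450.1 units. In the VIM tumours it measured 207, 90.2 and 341 units. In the MYC tumours it measured 21.5, 30.9 and 1409.6 units. Every tumour was above every kidney, and within each genotype the libraries lay far apart, most of all among the MYC tumours. The log2 change against kidney was 6.16 in VM tumours (SE 0.88, adjusted p = 0.000238, limma) and 5.75 in VIM tumours (SE 0.51, adjusted p = 1.77e-05, limma). Its level in the 24 cell libraries stayed at or below 5.79 units. The next genes on that chromosome, Slc39a14 and Polr3d, were also higher in the tumours than in kidney: Polr3d, a subunit of RNA polymerase III 9654 bases away, measured 307 to 613 units in tumours and 179.9 to 292 in kidney. Slc39a14, a metal ion transporter 21055 bases away, measured 1690 to 9782 units in tumours and 893 to 1189.8 in kidney. Neither gene was near 0 in kidney as Piwil2 was.

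Tdrd1, a tudor-domain protein that binds Piwi proteins, lies at chr19:56900699-56944502 on the plus strand (mm9). It was listed at 0 in all 5 kidneys. In the MYC tumours, for which it was chosen, it measured 2029.85 units in the tumour of mouse 2917, and 2645 and 0 units in the 2 libraries of mouse 2983. In the VIM tumours it measured 519.8, 25.1 and 539.7 units, or 276, 20 and 294 reads. In the VM tumours it measured 0, 1.03 and 813 units, the last being the tumour of mouse 2459. All 3 VIM tumours were above the floor, 1 of 3 VM tumours and 2 of 3 MYC tumours. Against the kidney floor of 4.45 units the mean of the VIM tumours, 362 units ± 292 (SD, n = 3), was at least 81.2-fold higher. The log2 change was 7.60 in VIM tumours (SE 0.90) and 3.56 in VM tumours (SE 1.79), and 5.35 without the VM tumour of mouse 3115. These are given as a description, since the kidneys, all at 0, were also the baseline of the choice of this gene and it entered the comparison only through tumours.

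Mov10l1, an RNA helicase needed to make piRNAs, lies at chr15:88813339-88885582 on the plus strand (mm9). It was listed at 0 in all 5 kidneys and in all 3 MYC tumours. In the VIM tumours it measured 131.8, 495 and 5.51 units, or 70, 395 and 3 reads. In the VM tumours it measured 0, 5.15 and 8.63 units, the highest of which was 7 reads. Levels over 100 units were thus seen in 2 tumours, both VIM. The log2 change against kidney was 6.24 in VIM tumours (SE 1.12), and the mean of the 3, 211 units ± 254 (SD, n = 3), was at least 47.3-fold higher than the kidney floor, or at least 15.4-fold without the tumour of mouse 3233. Without single libraries the log2 change ran from 4.88 to 8.004. In VM tumours the log2 change was 1.96 (SE 0.67), on 5 and 7 reads in 2 libraries. With every kidney at 0, Mov10l1 entered these comparisons only through tumours, so its changes are a description too. In the cell lines it never passed 1.12 units. The genes on either side, Mlc1 at 3902 bases and Panx2 at 4574 bases, measured 0 and 0 to 13.8 units in the VIM tumours.

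**Figure D2:**
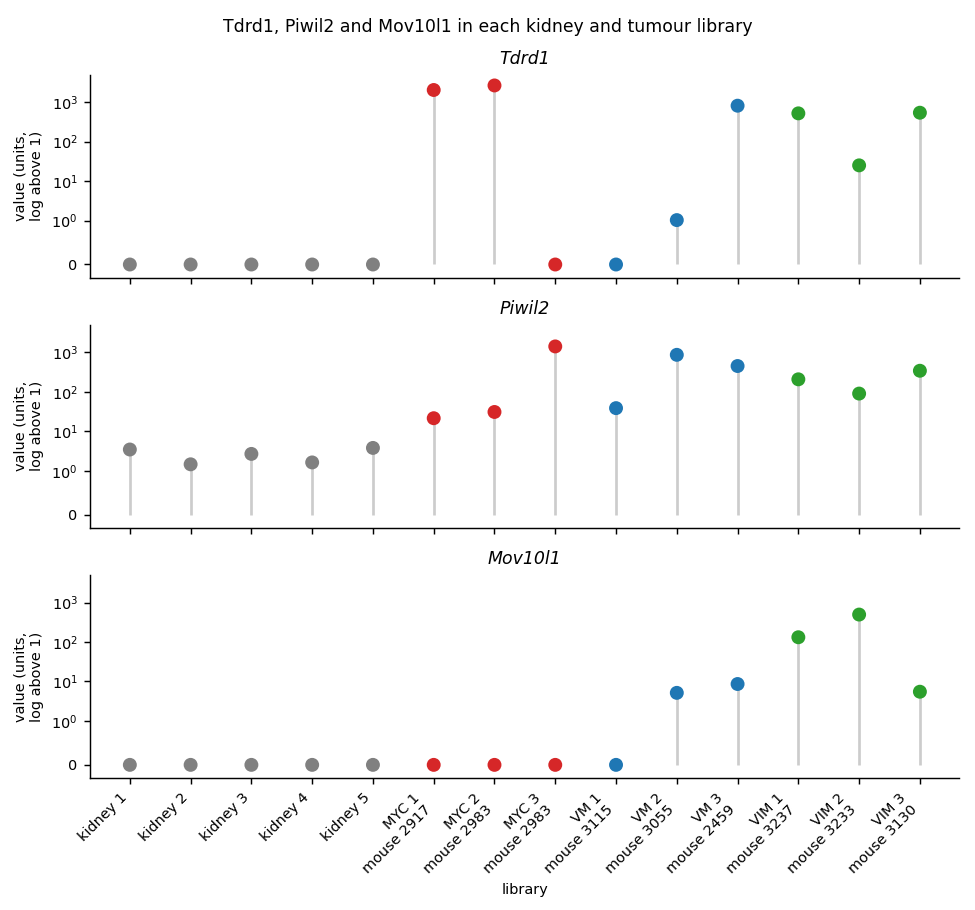
Each point is 1 library (kidneys grey, MYC tumours red, VM tumours blue, VIM tumours green), and the vertical axis gives the level in units, linear below 1 and logarithmic above. Piwil2 is above the kidneys in all 9 tumours, Tdrd1 is over 100 units in 5 of 9 and Mov10l1 in 2 of 9, and the pair of libraries from mouse 2983 differ in Tdrd1 and Piwil2.

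The tumours did not share 1 pattern of these genes. Of the 9, 8 had at least 1 of Tdrd1, Piwil2 and Mov10l1 over 100 units, the exception being the VM tumour of mouse 3115, with 38.6 units of Piwil2 and 0 of the other two. Tdrd1 was over 100 units in 5, Piwil2 in 5 and both in 3. The 2 libraries of mouse 2983 were the farthest apart. One held 2645 units of Tdrd1 and 30.9 of Piwil2, and the other 0 of Tdrd1 and 1409.6 of Piwil2. These 2 libraries also differed in Rec8, a meiotic cohesin subunit, at 602 and 0 units, and in Tdrkh, a tudor protein of the piRNA pathway, at 2196 and 33.9 units. The first had 8909 units of stromal markers in sum and the second 736, while tubule markers summed to 20995 and 16911 units. Whether the 2 libraries came from 1 tumour or from separate tumours of that mouse is not in the labels.

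Sycp3, part of the lateral element of the synaptonemal complex, went the other way. It measured 592, 500.5, 538.0, 526.3 and 369 units in the 5 kidneys. In the VIM tumours it measured 37.1, 26.0 and 83.7 units. In the MYC tumours it measured 38.3, 17.6 and 35.2 units. In the VM tumours it measured 74.3, 489 and 78.2 units, so that the tumour of mouse 3055 alone lay within the kidney range. Sycp3 fell in VIM tumours (log2 change -3.50, SE 0.35, adjusted p = 3.92e-05, limma) and in VM tumours (log2 change -1.81, SE 0.54, adjusted p = 0.0175, limma). The VM change did not pass without the tumour of mouse 3115 (-1.34, adjusted p = 0.0756, limma) or that of mouse 2459 (-1.38, adjusted p = 0.0824, limma).

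Sycp3 lies at chr10:87922314-87935981 on the plus strand, wholly inside Chpt1 (chr10:87915490-87966818, mm9), which runs on the minus strand and codes for a choline phosphotransferase. The libraries were made with a stranded kit, but the sources do not say whether strand was used in counting, and without it the reads of these genes cannot be told apart. Chpt1 measured 42927 to 92667 units in kidney, 1864 to 9539 units in the tumours and 196 to 1086 units in the cells. Sycp3 was 0.639% to 0.859% of Chpt1 in kidney and 0.675% to 1.66% in 8 of the 9 tumours. In the cell lines it was 0% to 2.004% of Chpt1. The VM tumour of mouse 3055 stood apart at 7.39%. Sycp3 was thus at 0% to 2.004% of Chpt1 in every library but that one. Within a group it did not always follow Chpt1. In VM-3055 cells without Dox, Sycp3 was highest (16.1 units) where Chpt1 was lowest (915 units). The part of Chpt1 in the fall of Sycp3 was not tested.

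**Figure D3:**
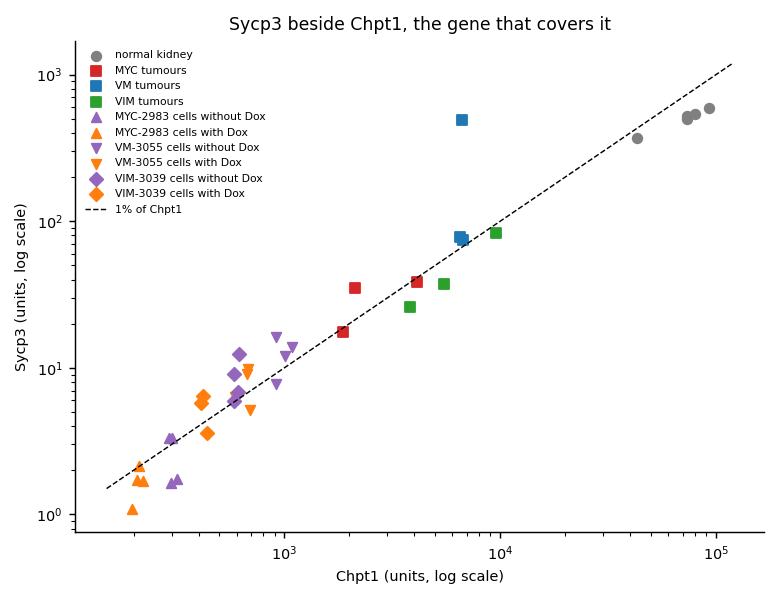
Each point is 1 library, with Chpt1 on the horizontal and Sycp3 on the vertical axis, both in units on log scales; 1 VIM-3039 library with Sycp3 at 0 is not drawn. The points follow the dashed line of 1%, and 1 VM tumour lies above it at 7.39%.

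Ddx4, the helicase known as Vasa, was present at low levels in kidney and tumours alike. It measured 5.06 to 39.1 units in kidney, 3.67 to 47.1 in VIM tumours and 13.6 to 39.9 in VM tumours. The highest library was a MYC tumour of mouse 2983 at 106 units, the same library that held 2645 units of Tdrd1, while the other 2 MYC tumours measured 5.60 and 7.06 units. Neither VM (log2 change 0.25, SE 0.64, adjusted p = 0.767, limma) nor VIM tumours (-0.76, SE 0.84, adjusted p = 0.469, limma) passed.

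In all, 3 of 7 germline genes tested passed in VM tumours against kidney, 2 higher and 1 lower, where 39.8% of all genes tested passed, 17.3% higher and 22.5% lower. In VIM tumours 4 of 8 passed, 3 higher and 1 lower, against 39.6% of all genes, 18.9% higher and 20.7% lower. The shares of genes passing were thus near the background in both genotypes. The median log2 change over all genes tested was -0.05 in VM and 0.01 in VIM tumours, and over the germline genes tested 0.40 and 0.22. Among those that passed, Mov10l1 in both genotypes and Tdrd1 in VIM tumours were at 0 in all kidneys and entered only because tumours held them, so these counts and medians support nothing. The call of Mov10l1 in VM tumours was lost without any one of kidneys 1 to 4 (adjusted p = 0.0514 to 0.0529, limma). In MYC tumours, with no test, 1 of 7 genes (Piwil2) was higher in every tumour than in every kidney, where 27.3% of all genes were, and 1 of 7 (Sycp3) was lower in every tumour, where 23.5% were.

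Between VIM and VM tumours none of 7 genes passed (limma), where 0.249% of all genes did (0.174% higher and 0.0746% lower in VIM), and 1 of the 7, Mov10l1, had an unadjusted p under 0.05. The log2 difference of VIM minus VM was 4.27 for Mov10l1 (SE 1.56, adjusted p = 0.347, limma) and 4.04 for Tdrd1 (SE 2.37, adjusted p = 0.571, limma). For Piwil2 it was -0.42 (SE 1.05, adjusted p = 0.921, limma). With 3 tumours a side and libraries this far apart, large differences between the genotypes could not be resolved.

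**Figure D4:**
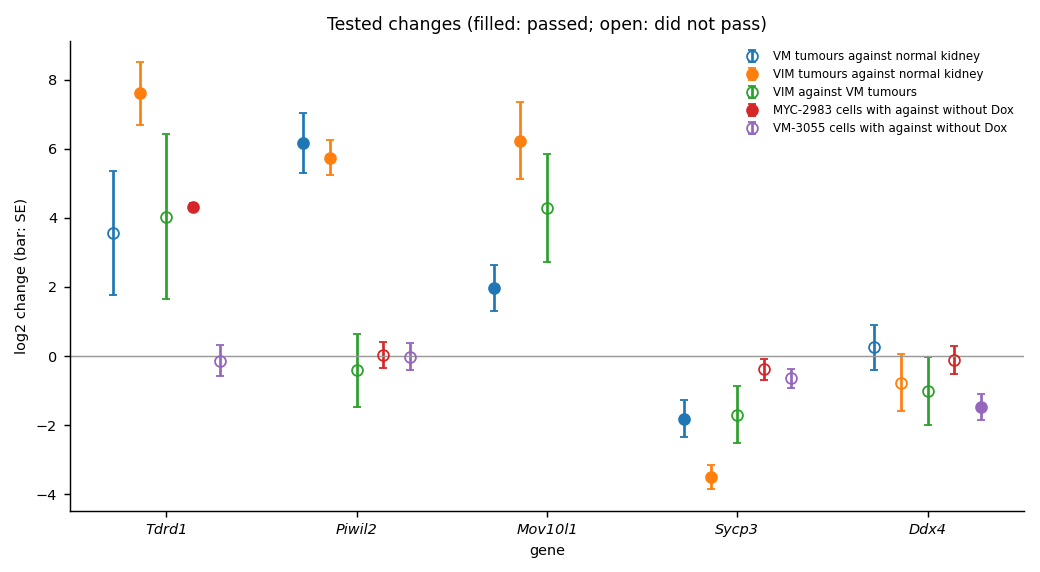
Points give the log2 change of 5 germline genes in 5 tested comparisons and bars its SE; filled points passed the test (adjusted p under 0.05 and a log2 change over 1 in size) and open points did not. Piwil2 is up in VM and VIM tumours and Tdrd1 alone of the 5 with Dox in MYC-2983 cells; Tdrd1 and Mov10l1, at 0 in all kidneys, entered the tumour comparisons with kidney only through tumours.

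In cells the question was whether switching MYC on moved these genes. Tdrd1 rose with Dox in MYC-2983 cells. With Dox it measured 320.3, 337, 349 and 339 units, and without Dox 17.1, 14.5, 15.05 and 16.9 units. The groups lay far apart, with little spread within each. The mean rose from 15.9 ± 1.29 to 336 ± 11.9 units (SD, n = 4 each), or 21.2-fold, a log2 change of 4.33 (SE 0.10, adjusted p = 3.75e-17, limma). It was the 1 of 4 germline genes tested that passed in this line, where 19.5% of all genes passed, 4.49% higher and the rest lower. Its neighbours on chromosome 19 moved less: Vwa2, 4237 bases beyond its end, went from 64.0 to 163.9 units on average, and A630007B06Rik, 4019 bases before its start, from 347 to 281.

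In VM-3055 cells Tdrd1 was at the floor. With Dox it measured 0.739, 2.55, 0.849 and 0.877 units, and without Dox 0, 2.71, 1.55 and 2.28 units. At so few reads no change was detectable (log2 change -0.13, SE 0.46, adjusted p = 0.804, limma). The Dox effect itself differed between the lines by -4.46 on the log2 scale, VM-3055 minus MYC-2983 (SE 0.44, adjusted p = 6.91e-08, limma). Tdrd1 was lower in VM-3055 than in MYC-2983 cells with Dox (log2 change -7.29, SE 0.22, adjusted p = 2.02e-12, limma). Without Dox the log2 change was -2.83 (SE 0.36). Tdrd1 entered the comparison without Dox only through MYC-2983 cells, so that change is a description. Tdrd1 was also chosen on MYC tumours, 2 libraries of which came from mouse 2983. Sample numbers of the MYC-2983 set start anew, so that line, genotype and sequencing set cannot be told apart here.

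In VIM-3039 cells, given with no test, Tdrd1 measured 20.1, 20.1, 15.1 and 19.4 units with Dox and 4.75, 8.92, 6.12 and 3.32 units without. All 4 libraries with Dox were above all 4 without, as was true of 28.9% of all genes, and the means differed 3.23-fold at levels far under those of MYC-2983 cells. Over the 10 groups the mean level of Tdrd1 ran from MYC tumours (1558 units) through VIM tumours (362), MYC-2983 cells with Dox (336) and VM tumours (271) to VIM-3039 cells with Dox (18.7), MYC-2983 cells without (15.9), VIM-3039 cells without (5.78) and VM-3055 cells (1.636 without and 1.25 with Dox), with kidney at 0. The ranges of the 3 tumour groups overlapped, and so did those of VIM-3039 cells with Dox and MYC-2983 cells without.

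Asz1, which codes for an ankyrin-repeat protein of the mitochondrial surface in germ cells (GASZ), lies at chr6:18000964-18059061 on the minus strand (mm9). It was high in VIM-3039 cells, for which it was chosen. With Dox it measured 1817, 1875, 1829 and 1575 units, and without Dox 1232, 1288, 1329.6 and 1135 units. In the other 30 libraries the highest value was 7.40 units, in the VM tumour of mouse 2459, and 26 of the 38 libraries were at 0. The VIM tumours, of the same genotype as the line, measured 0, 0 and 1.84 units. The mean with Dox, 1774 ± 135 units (SD, n = 4), was 1.42 times the mean without, 1246 ± 84.2 units (SD, n = 4), and the 2 sets did not overlap, as was true of 28.9% of all genes upward and 41.1% downward in this line. Against VM-3055 cells with Dox, where all 4 libraries were at 0 and the floor was 2.49 units, it was at least 713-fold higher, where 31.7% of all genes were higher in every VIM-3039 library and 29.6% lower. The genes next to Asz1 were higher in VIM-3039 than in VM-3055 cells with Dox, but not than in MYC-2983 cells. Cftr, the chloride channel 61626 bases away, measured 178 to 221 units in VIM-3039, 106 to 136 in VM-3055 and 222 to 271 in MYC-2983 cells. Wnt2, 20379 bases away, measured 4.16 to 6.94, 0 and 5.44 to 7.86 units in the same lines. Without Dox, Cftr was lower in VIM-3039 (156 to 196 units) than in VM-3055 (215 to 250) and MYC-2983 cells (521 to 579). Wnt2 without Dox measured 12.3 to 25.5 units in VIM-3039, 0 to 1.52 in VM-3055 and 23.4 to 32.2 in MYC-2983 cells.

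**Figure D5:**
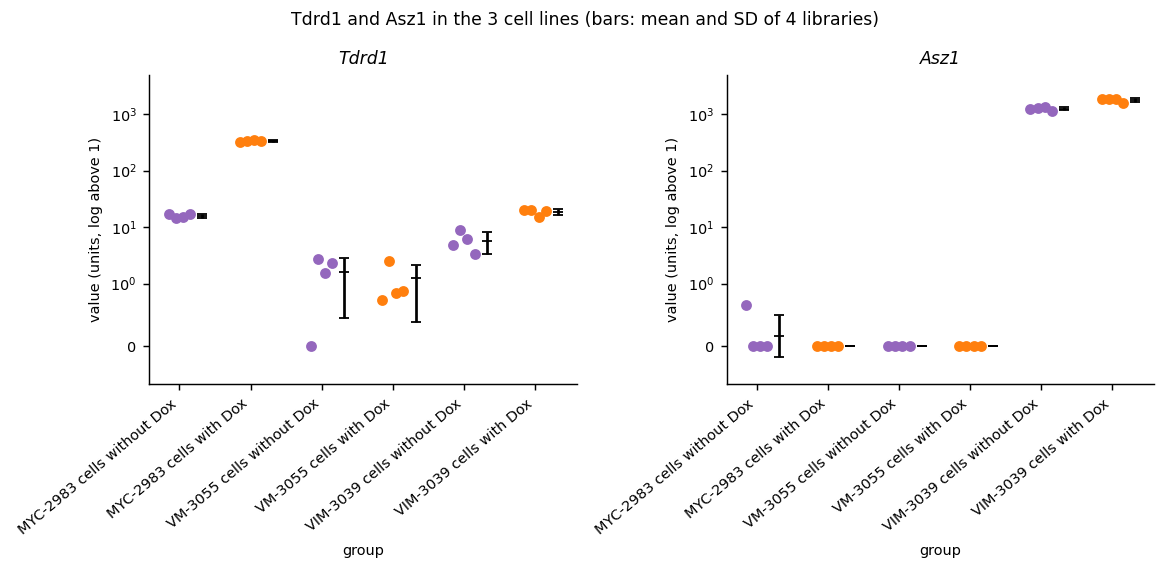
Points are single libraries (purple without Dox, orange with Dox) and bars the mean and SD of 4 libraries, with the level in units, linear below 1 and logarithmic above. Tdrd1 separates MYC-2983 cells with Dox (320.3 to 349 units) from those without (14.5 to 17.1), and Asz1 is at 1135 to 1875 units in VIM-3039 cells and at or near 0 in the other lines.

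The genes most like Tdrd1 and Asz1 were sought by Pearson's r over the 10 group means of log2(value + 1), over the 13354 genes whose mean reached 50 units in some group. This is a description over groups that share lines and controls. For Asz1 the 5 were Gm8801 (r = 0.98), Eras (0.98), Prl2c3 (0.97), Nrn1 (0.96) and Mdm2 (0.93). Eras, a Ras-like gene of embryonic stem cells, measured 970.5 to 1085 units with Dox and 1173 to 1229 without in VIM-3039 cells, and 0 to 0.760 units in the other lines. In tissue it was at 0 in all but 1 library, the MYC tumour of mouse 2983 that lacked Tdrd1, at 379 units. For Tdrd1 the 5 were Mettl17 (0.95), Tom1l1 (0.92), Fam105b (0.89), Pcgf2 (0.89) and Sgta (0.89). These are genes well above 100 units in every group, with a narrow range: Mettl17 ran from 179.6 units in kidney to 365 in MYC-2983 cells with Dox.

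The remaining genes were low in the lines. Ddx4 fell with Dox in VM-3055 cells, from 7.94, 8.53, 3.10 and 5.32 units to 2.96, 1.70, 0.849 and 0.877 units. The log2 change was -1.47 (SE 0.37, adjusted p = 0.00171, limma), on means of 10.5 and 2 reads, and it was the 1 of 5 germline genes tested that passed in this line, where 24.8% of all genes passed, 5.92% higher and 18.9% lower. Its Dox effect differed from that in MYC-2983 cells by -1.37 (SE 0.55, adjusted p = 0.0474, limma). Of 6 genes tested for that difference 2 passed, Ddx4 and Tdrd1, where 8.78% of all genes did (3.26% higher and 5.53% lower in VM-3055), and the call of Ddx4 was lost under most other settings, with adjusted p from 0.0166 to 0.129. Between VM-3055 and MYC-2983 cells 2 of 5 genes passed with Dox and 3 of 5 without, where 24.6% of all genes passed with Dox (6.54% higher and 18.1% lower in VM-3055) and 24.9% without (8.36% higher and 16.6% lower). Besides Tdrd1, given as a description without Dox, these were Sycp3 and Ddx4. Sycp3 was higher in VM-3055 cells with Dox (log2 change 1.67, SE 0.27, adjusted p = 6.31e-05, limma) and without (1.94, SE 0.28, adjusted p = 2.25e-05, limma). Ddx4 was higher there without Dox (1.18, SE 0.37, adjusted p = 0.01, limma). Sycp3 was at 16.1 units or less and Ddx4 at 8.53 units or less in all of these libraries, and Chpt1 averaged 658 and 982 units in VM-3055 against 209.6 and 303 in MYC-2983 cells.

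Dazl, an RNA-binding protein of early germ cells, was above the floor in 1 library, a kidney with 4 reads. Mael, a piRNA factor, was above it in 1 kidney with 7 reads and was at 0 in all 9 tumours and 24 cell libraries. Tex101, a surface glycoprotein of germ cells, was at 0 in all tumours and kidneys and held at most 3 reads in any cell library. Stk31, a tudor-domain kinase, held at most 2 reads anywhere. At these depths a few transcripts could have been missed, so that these genes were not detected rather than absent.

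Genes of the same pathways outside the 10 were counted from fixed lists, and the 4 of each list with the largest changes are named. Of 18 other piRNA pathway genes in the table, 13 could be tested in VM tumours against kidney, of which 4 passed higher (Mybl1, Pld6, Tdrd9 and Tdrkh) and 2 lower (Gpat2 and Tdrd5), where 17.3% and 22.5% of all genes did. In VIM tumours 13 could be tested, of which 1 passed higher (Pld6) and 2 lower (Tdrd5 and Tdrd7), where 18.9% and 20.7% of all genes did. Tdrkh, which anchors Piwi proteins to mitochondria, measured 406, 1257 and 163 units in VM tumours and 23.4 to 68.3 in kidney, and rose (log2 change 3.70, SE 0.62, adjusted p = 0.000643, limma). In VIM tumours it measured 24.5, 31.3 and 53.2 units. Pld6, the nuclease Zucchini that cuts piRNA precursors, rose in both: 25.3 to 50.5 units in VM tumours (log2 change 1.35, adjusted p = 0.0144, limma) and 39.5 to 51.4 in VIM tumours (1.56, adjusted p = 0.00329, limma), with 12.05 to 16.4 in kidney. Tdrd5, another tudor protein, measured 29.4 to 105 units in kidney and 0, 0 and 4.93 in VM tumours (log2 change -4.80). It fell in VIM tumours, at 18.8, 25.1 and 0 units (-2.65, adjusted p = 0.0454, limma). Gpat2, an acyltransferase-like protein of mitochondria, was low, with 1.63 to 13.4 units in kidney and 0, 3.09 and 0 in VM tumours (-2.15). Tdrd5 and Gpat2 entered the VM comparison only through kidneys, so their changes and calls there are a description. In VIM tumours Gpat2 measured 0, 2.51 and 9.18 units and did not pass. Piwil1, the Piwi protein of late spermatogenesis, was at 0 in all 38 libraries.

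With Dox, 2 of 8 other piRNA genes tested in MYC-2983 cells passed higher and 1 (Tdrd7) lower. Of all genes tested in this line 19.5% passed, 4.49% higher and the rest lower. Tdrkh measured 599 to 641 units without Dox and 1584 to 1725 with it (log2 change 1.42, SE 0.03, adjusted p = 5.52e-17, limma), and Pld6 1.74 to 3.29 without and 8.91 to 14.1 with it (1.87, SE 0.25, adjusted p = 2.03e-06, limma). In VM-3055 cells none of 7 passed higher (limma; 1, Tdrkh, at an unadjusted p under 0.05) and 3 passed lower (Exd1, Tdrd7 and Tdrd9), where 5.92% and 18.9% of all genes did. The Dox effect differed between these lines for 3 of 11, where 8.78% of all genes did: Tdrkh, Pld6 and Tdrd9, by -1.09, -1.65 and -1.63. Adjusted p was 1.35e-11 for Tdrkh and 0.00436 for Tdrd9 (limma). Pld6 was at 0 in VM-3055 cells but for 1 library at 0.849 units. Pld6 entered this comparison only through MYC-2983 cells, so its difference is a description. All 3 differences were negative, as was that of Tdrd1, and 5.53% of all genes passed in this direction. They arose differently. Tdrkh and Pld6 passed higher with Dox in MYC-2983 cells. Tdrd9 passed lower with Dox in VM-3055 cells and was not among those passing in MYC-2983 cells.

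Of 32 other meiosis and germ cell genes, 22 could be tested in VM tumours, of which 6 passed higher and 2 lower, where 17.3% and 22.5% of all genes did. In VIM tumours 20 could be tested, of which 4 passed higher and 1 lower, where 18.9% and 20.7% did. Tex19.1, a germ cell gene that restrains retrotransposons, was at 0 in all kidneys and all MYC tumours. It measured 401, 99.0 and 7.34 units in VIM tumours (log2 change 6.12, SE 1.01) and 70.6, 127 and 0 in VM tumours (4.39, SE 1.31). Dpep3, a testis dipeptidase, measured 260, 70.2 and 9.18 units in VIM tumours (5.84, SE 0.86) and at most 1.33 elsewhere in tissue. Hormad2, a meiotic axis protein, measured 1.33, 18.6 and 69.1 units in VM tumours (3.88, SE 0.89) and at most 1.84 in the other tissue libraries. Rec8 rose in VM tumours, at 322, 614 and 676 units against 24.8 to 162 in kidney (2.75, SE 0.62, adjusted p = 0.00376, limma). It measured 11.4 to 27.0 units in MYC-2983 cells and 0 in all VM-3055 and VIM-3039 libraries. Tex19.1, Dpep3 and Hormad2 were at 0 in all kidneys and entered only through tumours, so their changes are a description, and they varied widely among tumours of 1 genotype, while Rec8 was above the kidney range in all 3 VM tumours. In MYC-2983 cells with against without Dox, 13 genes of this list could be tested (limma). Of these, 0 passed higher (2 at an unadjusted p under 0.05) and 1 lower (Brdt). Of all genes 19.5% passed there, 4.49% higher and the rest lower. In VM-3055 cells 1 of 14 passed higher (Tex19.1) and 1 lower (Brdt), where 5.92% and 18.9% of all genes did. The Dox effect differed between these lines for 0 of 17 (1 at an unadjusted p under 0.05), where 8.78% of all genes did.

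The genes that hold germline promoters silent were all measured: 22 subunits of the PRC1.6 complex, DNA methyltransferases and histone methylation factors. None passed lower with Dox (limma), with 1 lower at an unadjusted p under 0.05 in VM-3055 and 4 in MYC-2983 cells. With Dox, 4 rose in VM-3055 cells and 2 in MYC-2983 cells. Of all genes tested in VM-3055 cells, 5.92% passed higher and 18.9% lower. In MYC-2983 cells 19.5% of all genes passed, 4.49% higher and the rest lower. In tumours 10 of 22 rose and 1 fell in VM, where 17.3% of all genes rose and 22.5% fell, and 9 of 22 rose and 1 fell in VIM, where 18.9% rose and 20.7% fell. The largest changes were in Hells, Uhrf1, Dnmt3b and Tfdp1, of which the first 2 are known to be high in dividing cells. Dnmt3b, a methyltransferase that sets new methylation, measured 40.5 to 51.1 units without Dox and 276 to 336 with Dox in MYC-2983 cells (log2 change 2.71, SE 0.09, adjusted p = 1.13e-14, limma). In VM-3055 cells it measured 26.4 to 28.9 units without and 95.3 to 129 with Dox (1.91, SE 0.14, adjusted p = 8.84e-10, limma). With Dox, 2 of 22 passed lower in VM-3055 than in MYC-2983 cells (Dnmt3b and L3mbtl2), where 18.1% of all genes did, and 0 passed higher, where 6.54% did. Without Dox, 1 of 22 passed lower (L3mbtl2), where 16.6% did, and 0 higher, where 8.36% did (limma). The part of these genes in the levels of the germline genes was not tested.

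Lines and tumours from the same mouse could be set side by side for 2 mice, as values. The tumour of mouse 3055 held 1.03 units of Tdrd1, 864 of Piwil2 and 489 of Sycp3, and the VM-3055 line at most 2.71, 3.88 and 16.1 units of each. The libraries of mouse 2983 held 2645 and 0 units of Tdrd1 and 30.9 and 1409.6 of Piwil2, and the MYC-2983 line with Dox 320.3 to 349 and 2.72 to 3.25 units. Piwil2, above the kidneys in every tumour, was thus near the floor in every line.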

How the data were processed

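RNA-seq was done on 38 libraries, made with a stranded mRNA kit. The authors aligned paired reads to mm9 with MapSplice, filtered them with SAMtools and UBU, checked alignments with Picard 1.64, estimated gene abundance with RSEM on UCSC knownGene models, and deposited a signal per gene that they scaled to an upper quartile of 1000 units in each library. These values are not counts, so no count model was used. Whether strand was used in counting is not given in the sources used here.

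Genes above 0 in at least 4 (cells) or 2 (tissue) of the libraries compared were tested with limma 3.58.1 (R 4.3.3; moderated variance with a trend, two-sided) on log2(value + 1), with Benjamini-Hochberg adjustment over all genes tested. To pass, a gene needed an adjusted p below 0.05 and a change of more than 1 log2 unit in size. Fold changes on this scale understate the change of low genes. Nothing says that the 4 libraries of a cell group came from separate cultures, so p-values there measure the spread between libraries. The depth was estimated from the value of 1 read, the most frequent low value of a library, of which 94.1% to 95.9% of the values under 20 reads were whole multiples (within 0.02).

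The members and lists were chosen with earlier results of these data known. All 10 members are named; of each other list the 4 genes with the largest change among those passing, while Piwil1, the other list and marker genes named beside counts, neighbours and Chpt1 were named after their values were seen. Alternatives were other pseudocounts, filters, scalings, variance models and samples. Scripts were tested on simulated data.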

Additional observations from a re-analysis of the deposited data

Results flagged for a closer look

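The Dox effect on Tdrd1 differed between VM-3055 and MYC-2983 cells by -4.46 on the log2 scale, and that on Ddx4 by -1.37, each by the interaction term in limma. Of 28 pairs of gene and group with 4 or 5 libraries, 3 had 1 library far from the others, where chance gives about 1 in 20. These were the lowest library for Tdrd1 in VIM-3039 cells with Dox (15.1 units), the kidney with the highest Dazl (5.06 units) and the kidney with the highest Mael (9.37 units). The last 2 are 4 and 7 reads.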

How the results depend on the processing

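The counts of germline genes passing in MYC-2983 cells with against without Dox (1), in VIM tumours against kidney (4) and between VIM and VM tumours (0) were the same under every alternative that was run. The counts against kidney include Mov10l1, and in VIM tumours Tdrd1, which entered only through tumours. That a count against kidney stayed the same therefore supports nothing. In VM-3055 cells with against without Dox the count went from 1 to 0 with a pseudocount of 10, with a filter on a mean of at least 10 units and with quantile normalization. The count for the difference in Dox effect went from 2 to 1, by the loss of Ddx4, with pseudocounts of 0.1 and 10, no filter, the filter on the mean, TMM, quantile normalization, no moderation and all 6 cell groups in the fit, and was 1 to 2 when single libraries were left out. Between VM-3055 and MYC-2983 cells it went from 2 to 1 with Dox and from 3 to 1 without under a pseudocount of 10, and to 1 and 0 under the filter on the mean; without single libraries it was 2 to 3 in the cells without Dox. In VM tumours against kidney it went from 3 to 1 without moderation and with KT kidneys only, and was 1 to 3 without single libraries, the lowest without the VM tumour of mouse 2459. For Piwil2 between VIM and VM tumours the log2 change of -0.42 turned positive without the VIM tumour of mouse 3233 (0.10), the VM tumour of mouse 3055 (0.48) or that of mouse 2459 (0.01), within a range of -1.74 to 0.48 over single libraries left out, and passed in none of these. The cause was not tested, except that a filter on the mean removes low genes and a pseudocount of 10 shrinks them. Rescaling moved the median log2 change of well-measured genes with Dox in VM-3055 cells from -0.17 to 0.00. Replicate numbers in VM-3055 cells did not pair the libraries (correlations of -0.15 to -0.02), and a replicate block left the count at 1. With 3 tumours a group, the spread between tumours limits what could be resolved.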
